A study of Mus musculus with 5 samples.

Results

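The genes of chloride amplification in the cilia of olfactory sensory neurons (OSNs) were followed in sorted neurons that transcribe the odorant receptor gene *Olfr151*. They comprise the anoctamins *Ano2*, *Ano1*, *Ano6* and *Ano10*, the cation-chloride cotransporters *Slc12a2* and *Slc12a5*, the chloride/proton exchanger gene *Clcn3* and the ciliary membrane protein gene *Stoml3*. They were chosen by symbol from what is known of the pathway, with no measured value in the rule, and make up 8 of the 55411 genes counted. Earlier results of these data were known when the genes and the lists of related genes were chosen. All 8 symbols matched 1 row each.

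In the cilium, odorant binding activates adenylyl cyclase, and cAMP opens a cation channel through which calcium enters. Calcium then opens a chloride channel, encoded by *Ano2*, and because these neurons keep their internal chloride high, chloride leaves the cell and enlarges the depolarization. The internal chloride is accumulated in large part by the cotransporter NKCC1, the product of *Slc12a2*, whereas KCC2, the product of *Slc12a5*, moves chloride outward in most mature neurons of the brain.

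Neurons were sorted by the green fluorescence of an IRES-tau-GFP reporter from male mice, 7 weeks old, homozygous for the Olfr151(tm26Mom) allele, so that every group carries this same modified receptor locus. The mice were exposed for 5 h to DMSO alone (control pools 1, 2 and 3) or to 5% acetophenone, a ligand of the *Olfr151* receptor, in DMSO (exposed pools 1 and 3). Cells of 4 mice made up a pool, given as 200 cells per pool in one field of the sample descriptions and as 400 in another, and the pool numbered 2 of the exposed mice was not used here. The question was which transcripts differ in these neurons after exposure to their ligand.

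The 5 libraries held between 42780403 and 49527380 counts, of which spike-in RNAs took 0.249% to 0.631%. All 7 markers of mature OSNs, *Cnga2*, *Cnga4*, *Cngb1*, *Adcy3* and *Gnal* of the transduction cascade among them, were detected in every library, and their summed level, as TPM (counts divided by exon length and scaled to the same total in each library), lay between 40800 and 46717 in control and at 27887 and 30012 in exposed pools. Markers of immature OSNs summed to 297 to 368 TPM in control and to 429 and 515 TPM in exposed pools, with *Neurod1* at 0 in 4 of the 5 libraries. *Gap43* (190 to 236 TPM in control, 428 and 314 TPM in exposed pools) and *Gng8* made up the higher sum, whereas *Dpysl5* was at 72.7 to 93.8 TPM in control and at 40.7 and 54.6 TPM in exposed pools. Sustentacular markers summed to 65.9 to 261 TPM and respiratory markers to 280 to 435 TPM. *Olfr151* itself had a log2 fold change of -0.47 (adjusted p = 0.101, edgeR quasi-likelihood test with Benjamini-Hochberg adjustment) and the reporter one of -0.23 (adjusted p = 0.535). Over all genes the median absolute log2 difference of control pool 3 was 0.297 to control pool 2 and 0.388 to control pool 1, and 0.453 and 0.385 to exposed pools 1 and 3. It was thus about as near to exposed pool 3 as to control pool 1, and nearer to both exposed pools than control pool 1 (0.551 and 0.526) or control pool 2 (0.504 and 0.409) was. Control pool 3 lay more than 4-fold below both other control pools for 165 of 10053 genes, against 161 genes for control pool 1 and 41 for control pool 2. For *Slc12a2* it was the lowest of the control pools, and results that rest on this pool are given with and without it. The pool was singled out with this value known. A call that appears only without it therefore describes the weight of this pool and is not a test. Its label could not be checked by a targeted gene, since all pools carry the same allele. Control pool 3 lay with the other control pools for the mature markers *Cnga2* (5774 TPM, exposed pools 3188 and 2925) and *Rtp1* (2228 TPM, exposed pools 802 and 966). Both genes were called lower in exposed pools with and without this pool. For *Gnb1*, a G protein subunit gene, it was nearer to the exposed pools (1534 TPM, exposed pools 916 and 883). The label was not tested further. Since these are bulk samples, fewer cells of a type and less RNA per cell cannot be told apart.

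The 8 genes spanned more than 5 orders of magnitude in level, in an order that was the same in all 5 libraries. *Stoml3* was at 24791 to 29460 TPM and had a rank between 1 and 3 among all genes in every library. *Ano2* followed at 1315 to 1757 TPM, with a rank between 53 and 81. *Slc12a2* was at 44.1 to 238 TPM, *Clcn3* at 28.7 to 39.9 TPM, *Ano10* at 13.3 to 26.7 TPM and *Ano6* at 1.67 to 6.74 TPM. *Slc12a5*, at 0.308 to 3.32 TPM, and *Ano1*, at 0 to 0.221 TPM, closed the order. Neighbours in this order did not overlap in their ranges over the 5 libraries, except *Ano6* and *Slc12a5*. *Slc12a2* and *Clcn3* came close, with the lowest *Slc12a2* value at 44.1 TPM and the highest *Clcn3* value at 39.9 TPM.

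**Figure D1:**
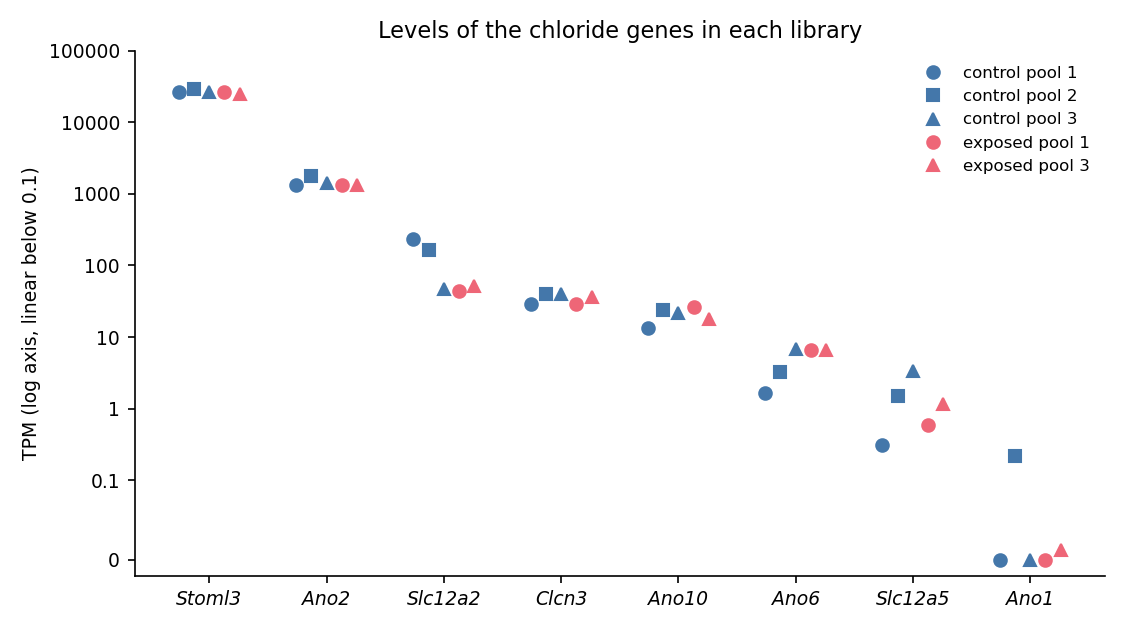
TPM of the 8 chloride genes (x axis, ordered by mean level) in each library, on a log axis that is linear below 0.1, with control pools in blue and exposed pools in red and 1 symbol per pool number. *Stoml3* and *Ano2* lie at the top with all 5 libraries close together, while *Slc12a2* splits into control pools 1 and 2 (238 and 166 TPM) and the other libraries (44.1 to 51.3 TPM).

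The start sites of *Stoml3* and *Ano2* held fewer CpG dinucleotides than those of the other genes examined. Promoter windows of 300 bases (250 before to 50 after the annotated start, from RefSeq on GRCm38.p6) were read for 7 of the 8 genes, and that of *Slc12a2* was not used here. The number of CpG dinucleotides was 4 for *Stoml3* and 10 for *Ano2*, against 18 for *Ano1*, 21 for *Slc12a5*, 24 for *Ano10*, 29 for *Ano6* and 38 for *Clcn3*. Over 32851 windows the median was 7, with quartiles at 3 and 20, and 31.4% of windows held fewer CpG than *Stoml3*, 56.5% fewer than *Ano2* and 95.1% fewer than *Clcn3*. The window of *Ano1* lies 13401 bases from the start of its counted gene model. Both strands were searched for the palindromic Ebf site (in 0.904% of all windows), the homeodomain site TAATTA (5.29%), the cAMP response element TGACGTCA (1.79%) and the TATA box TATAAA (13.6%). The only match was 1 cAMP response element in the window of *Clcn3*, starting 10 bases after the annotated start. The windows of the 2 most abundant genes and of *Clcn3*, which has the most CpG, are shown to make the difference in CpG visible. They lie at chr3:53488457-53488756 (plus strand), chr6:125690169-125690468 (plus strand) and chr8:60983262-60983561 (minus strand), and capitals mark each CpG.
Stoml3: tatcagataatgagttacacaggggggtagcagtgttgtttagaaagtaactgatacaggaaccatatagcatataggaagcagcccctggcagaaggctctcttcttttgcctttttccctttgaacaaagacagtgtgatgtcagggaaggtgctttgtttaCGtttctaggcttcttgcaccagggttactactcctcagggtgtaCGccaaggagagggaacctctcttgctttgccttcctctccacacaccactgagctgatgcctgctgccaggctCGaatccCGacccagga
Ano2: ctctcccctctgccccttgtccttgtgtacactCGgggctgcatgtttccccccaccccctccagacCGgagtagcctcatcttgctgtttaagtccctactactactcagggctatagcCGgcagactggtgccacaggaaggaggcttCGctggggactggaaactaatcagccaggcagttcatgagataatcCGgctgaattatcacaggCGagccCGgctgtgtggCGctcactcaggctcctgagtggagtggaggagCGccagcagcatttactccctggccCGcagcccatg
Clcn3: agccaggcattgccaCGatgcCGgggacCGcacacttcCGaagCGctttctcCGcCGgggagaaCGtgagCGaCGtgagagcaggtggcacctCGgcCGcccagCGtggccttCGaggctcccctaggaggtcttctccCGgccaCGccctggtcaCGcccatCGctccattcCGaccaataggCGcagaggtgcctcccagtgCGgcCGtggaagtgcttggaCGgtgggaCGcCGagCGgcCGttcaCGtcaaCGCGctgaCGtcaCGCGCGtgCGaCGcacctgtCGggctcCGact

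Of the 8 genes, 6 had enough counts to be tested between conditions, with *Slc12a5* and *Ano1* below the filter on low counts (140 counts, to be reached by all libraries of either condition). None of the 6 was called (adjusted p under 0.1 with a log2 fold change beyond 0.5 in either direction) by edgeR's quasi-likelihood test, 0 of them had an unadjusted p under 0.05, and DESeq2 called 0 as well. Over all genes, 530 of 10053 were called (5.27%), with 344 higher (3.42%) and 186 lower (1.85%) in exposed pools. The median log2 fold change of the 6 genes was 0.05, against -0.03 for all genes tested. Without control pool 3, 1 of the 6 was called, *Slc12a2*, where 780 of 10274 genes were called (7.59%), 349 higher (3.4%) and 431 lower (4.2%). That pool was singled out with its low *Slc12a2* value known, so the call is not a test of *Slc12a2*.

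**Figure D2:**
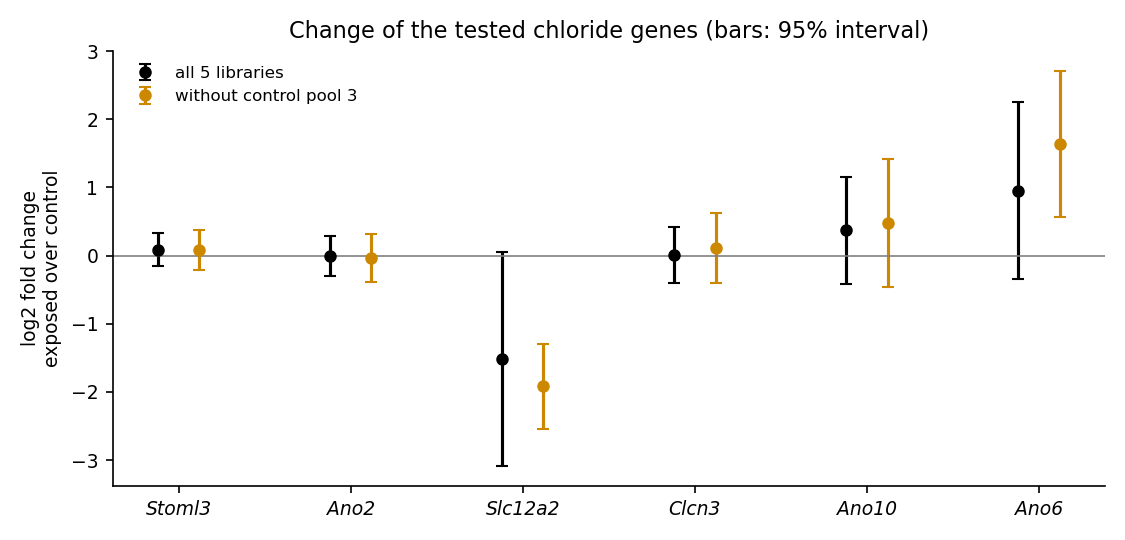
Log2 fold change, exposed over control, of the 6 tested chloride genes with 95% intervals from edgeR, in black with all 5 libraries and in orange without control pool 3. *Stoml3*, *Ano2* and *Clcn3* lie near 0 in both fits with the narrowest intervals. The interval of *Slc12a2* excludes 0 only without control pool 3 (-2.54 to -1.29), a pool singled out with its *Slc12a2* value known.

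*Ano2* (ENSMUSG00000038115, plus strand of chromosome 6, 125690419 to 126040126 on GRCm38), the calcium-activated chloride channel of the cilium, was among the most precisely measured of these genes. Its level, in counts scaled by TMM to a common library size (CPM), was 2242, 2605 and 2183 in control pools 1, 2 and 3, with a mean of 2343 ± 229 (SD, n = 3). In exposed pools 1 and 3 it was 2407 and 2245, with a mean of 2326 ± 115 (SD, n = 2). Both exposed pools lay within the range of the control pools. The log2 fold change was -0.01 (SE 0.12, adjusted p = 0.974, edgeR), and its 95% interval corresponds to a fold between 0.811 and 1.21. On the TPM scale, by contrast, both exposed pools (1329 and 1315) lay below all control pools (1341, 1757 and 1406), although control pool 1 was only slightly higher.

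*Ano2* held nearly all transcripts of its family, with 97.1% to 97.9% of the summed TPM of *Ano1* to *Ano10* in each library. *Ano1* (ENSMUSG00000031075), which encodes the related chloride channel of many epithelia and smooth muscles, had 0, 19 and 0 counts in control and 0 and 1 counts in exposed pools. A count of 0 allows up to 3 counts, or 0.0665 to 0.0689 CPM, in those libraries. Of the 6 anoctamins outside the 8 genes, *Ano4* and *Ano7* were at 0 in every library and none passed the filter with all libraries. The most abundant of them was *Ano8*, a little studied member of the family, with 2188, 1168 and 38 counts in control and 107 and 94 counts in exposed pools. It was high only in control pools 1 and 2, and it passed the filter without control pool 3 only through those pools, so that no test is given for it.

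*Ano6* (ENSMUSG00000064210), an anoctamin known as a phospholipid scramblase, was scarce and variable. Its level was 6.37, 10.97 and 23.8 CPM in control pools 1, 2 and 3 and 27.6 and 25.5 CPM in exposed pools 1 and 3. The groups did not overlap on this scale, as was the case for 39.9% of all tested genes, but on the TPM scale control pool 3 (6.74) was above both exposed pools (6.70 and 6.56). The log2 fold change of 0.95 (SE 0.55, 95% interval -0.34 to 2.25) did not pass the test (adjusted p = 0.392, edgeR), nor did that of 1.64 without control pool 3 (adjusted p = 0.111, in a range of 0.111 to 1.00 over the alternatives). *Ano6* is also expressed in blood cells, and the 6 myeloid markers summed to 160.5, 27.0 and 7.66 TPM in control and 157 and 101 TPM in exposed pools, with *Csf1r* at 0 in control pools 2 and 3 and *Ptprc* at 0 in control pool 1. Their part in the values of *Ano6* was not tested. Exons of 2 antisense genes, *A130051J06Rik* and *Gm49172*, cover 1.74% and 0.994% of the exon bases of *Ano6*, and reads were counted without strand.

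*Ano10* (ENSMUSG00000037949), an anoctamin of less settled function, was at 24.3, 39.4 and 37.5 CPM in control and at 53.1 and 34.0 CPM in exposed pools. Exposed pool 1 was the highest library and exposed pool 3 lay inside the control range. The log2 fold change was 0.37 (SE 0.33, 95% interval -0.42 to 1.15, adjusted p = 0.596, edgeR).

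*Slc12a2* (ENSMUSG00000024597, plus strand of chromosome 18), the gene of the chloride loader NKCC1, was uneven among the control pools. Control pools 1, 2 and 3 had 35048, 24716 and 6806 counts, and exposed pools 1 and 3 had 6947 and 7419 counts. After TMM scaling these were 806, 500.3 and 147 CPM in control and 162 and 177 CPM in exposed pools, with means of 484 ± 329.6 (SD, n = 3) and 169.7 ± 10.97 (SD, n = 2). Control pools 1 and 2 were high, whereas control pool 3 was the lowest library after this scaling, below both exposed pools, so that the groups overlapped. With all libraries the log2 fold change was -1.51 (SE 0.65, 95% interval -3.09 to 0.06) and was not called (adjusted p = 0.277, edgeR). Without control pool 3 it was -1.92 (SE 0.26, 95% interval -2.54 to -1.29), 3.78-fold lower in exposed pools (adjusted p = 0.0146, in a range of 0.0146 to 0.76 over the alternatives). Control pool 3 was singled out with its low value known, so these figures show its weight and are not a test. The log2 fold change was -0.92 without control pool 1 (adjusted p = 0.471, edgeR) and -1.48 without control pool 2 (0.417). The 4 red blood cell markers followed the same split, with summed levels of 1339, 463 and 52.7 TPM in control pools 1, 2 and 3 and 53.7 and 22.4 TPM in exposed pools, all 4 detected in each library. The 4 Bowman's gland markers, all detected in each library, summed to 30.9, 39.7 and 14.4 TPM in control and 8.61 and 10.1 TPM in exposed pools. Among the gland markers *Aqp5*, a water channel gene, was at 15.0, 27.1 and 1.85 TPM in control and 1.36 and 2.32 TPM in exposed pools. *Bpifb9b* was at 15.2, 9.42 and 5.30 TPM in control and 4.76 and 4.86 TPM in exposed pools. *Sox9* went the other way, at 0.0716, 0.373 and 6.86 TPM in control and 1.58 and 1.41 TPM in exposed pools. *Muc5b* was at 0.668, 2.77 and 0.356 TPM in control and 0.917 and 1.48 TPM in exposed pools. The 5 sustentacular markers summed to 251, 261 and 65.9 TPM in control and 202 and 94.3 TPM in exposed pools. The part of these cells in the values of *Slc12a2* was not tested.

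Among the regulators of NKCC1, the WNK kinases activate the kinases SPAK and OSR1, the products of *Stk39* and *Oxsr1*, which phosphorylate the cotransporter together with the scaffold proteins encoded by *Cab39* and *Cab39l*. Of these 8 genes 7 were tested and none was called with all libraries. The median log2 fold change was -0.84, against -0.03 for all genes tested, with 6 of 7 estimates below 0. DESeq2 called *Stk39* and *Cab39l* lower, in a fit that called 769 of all 10053 tested genes lower. *Stk39* was at 44.96, 48.3 and 9.10 TPM in control and at 8.48 and 7.31 TPM in exposed pools (log2 fold change -1.95, SE 0.72, adjusted p = 0.225, edgeR). It shared with *Slc12a2* the high values in control pools 1 and 2 and a low value in control pool 3. *Cab39* (68.5, 95.1 and 17.6 TPM in control, 10.3 and 28.4 TPM in exposed pools) and *Wnk2* (17.3, 12.2 and 3.93 TPM in control, 2.42 and 4.81 TPM in exposed pools) were split in the same way. Without control pool 3, 3 of 7 were called, all lower in exposed pools: *Stk39* (log2 fold change -2.37), *Cab39* (-1.90) and *Wnk2* (-1.88). Over all genes 4.2% were called lower in that fit. These 3 genes were low in the pool left out, so the calls are not tests. *Cab39l*, the most abundant of the 8, differed from these 3 in that its control pools lay together (84.1, 90.5 and 84.2 TPM). They lay above both exposed pools (54.95 and 52.4 TPM). In CPM the groups did not overlap, as was the case for 39.9% of all tested genes. Those of *Wnk1* (lower in exposed pools) and *Wnk4* (higher) did not overlap either. The log2 fold change of *Cab39l*, -0.52 (SE 0.15), had an adjusted p of 0.146 by edgeR and was not called.

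**Figure D3:**
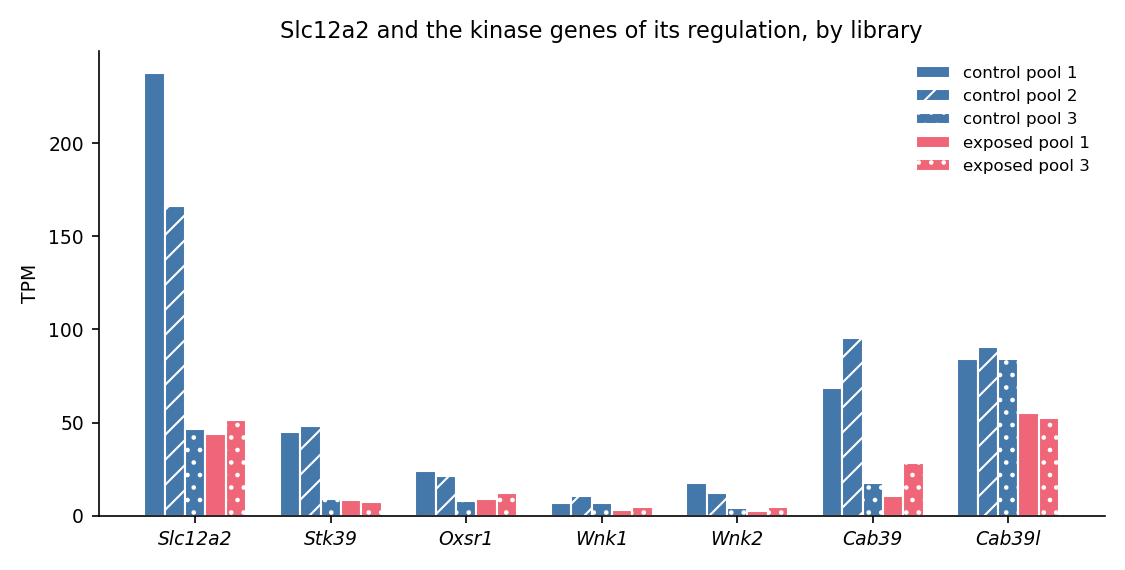
TPM of *Slc12a2* and of 6 genes of its regulation in each library (bars from 0, control pools in blue and exposed pools in red, hatching by pool number). *Slc12a2*, *Stk39*, *Cab39* and *Wnk2* are high in control pools 1 and 2 and low in control pool 3 and both exposed pools, whereas *Cab39l* is at 84.1 to 90.5 TPM in all control pools. *Wnk3* and *Wnk4* are not drawn, and *Wnk4* was highest in the exposed pools.

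*Slc12a5* (ENSMUSG00000017740), the gene of the chloride extruder KCC2, was low throughout, with 31, 150 and 329 counts in control and 63 and 116 counts in exposed pools. The exposed pools lay inside the control range. The log2 ratio of *Slc12a2* to *Slc12a5* in TPM was 9.59, 6.81 and 3.82 in control and 6.23 and 5.45 in exposed pools, so that *Slc12a2* exceeded *Slc12a5* by at least 14.1-fold in every library. The difference between conditions, -0.90, was not resolved (two-sided exact permutation test, p = 0.7, adjusted over 3 ratios 0.7, smallest possible p 0.1), and it was 0.52 without control pool 1.

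The transcripts of chloride extrusion came mainly from another gene. *Slc12a7*, the gene of the potassium-chloride cotransporter KCC4, was at 68.6, 125 and 101 TPM in control and 60.6 and 98.97 TPM in exposed pools, without a call (log2 fold change -0.12, SE 0.26, adjusted p = 0.834, edgeR). Of the summed TPM of *Slc12a1* to *Slc12a7*, *Slc12a2* took 75.1%, 55.3% and 28.9% in control and 39.5% and 31.4% in exposed libraries. *Slc12a7* took 21.7%, 41.4% and 62.3% in control and 54.3% and 60.7% in exposed libraries. *Slc12a2* was therefore the leading cotransporter only in control pools 1 and 2, at 3.02-fold and 1.24-fold the sum of *Slc12a4* to *Slc12a7*, and lay below that sum in control pool 3 (0.407-fold) and in exposed pools 1 and 3 (0.653-fold and 0.458-fold). Of the 7 cotransporter genes outside the 8, 3 were tested and none was called.

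**Figure D4:**
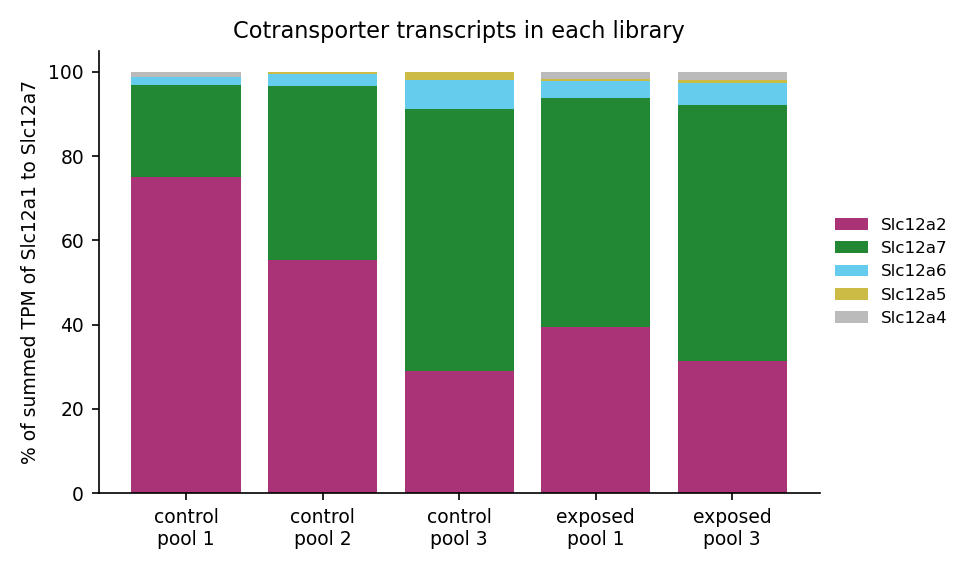
Share of each cotransporter gene in the summed TPM of *Slc12a1* to *Slc12a7* (y axis, percent) in each library, with genes in colours and genes near 0 not drawn. *Slc12a2* takes 75.1% and 55.3% in control pools 1 and 2 and 28.9% to 39.5% in the other libraries.

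*Clcn3* (ENSMUSG00000004319), which encodes a chloride/proton exchanger of endosomes and synaptic vesicles, was even across libraries, with 153, 185 and 196 CPM in control and 165 and 194 CPM in exposed pools. Both exposed pools lay within the control range. The estimate for *Clcn3* was a log2 fold change of 0.01 (SE 0.18, adjusted p = 0.986, edgeR), with a 95% interval of 0.754-fold to 1.34-fold. *Clcn3* made up 12.1% to 15.3% of the summed TPM of the 9 CLC genes, behind the related exchanger gene *Clcn4* (38.6% to 51.5%). Of the 9 other genes of this group, which include the CLC partner gene *Ostm1*, 6 were tested and none was called, and *Clcn4* had a log2 fold change of 0.35 (SE 0.18, adjusted p = 0.353, edgeR).

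*Stoml3* (ENSMUSG00000027744, plus strand of chromosome 3, 53488653 to 53508502 on GRCm38) encodes a stomatin-domain protein of the ciliary membrane. Its level was 17515, 17446 and 16351 CPM in control and 19472 and 16894 CPM in exposed pools, with means of 17104 ± 653 (SD, n = 3) and 18183 ± 1823 (SD, n = 2). Exposed pool 1 was the highest library and exposed pool 3 lay inside the control range. The log2 fold change was 0.09 (SE 0.10, adjusted p = 0.678, edgeR), with a 95% interval of 0.903-fold to 1.25-fold. Against *Adcy3*, the adenylyl cyclase gene of the same cilia, the log2 ratio in TPM was 3.24, 2.77 and 2.99 in control and 4.72 and 2.98 in exposed pools. The difference of 0.85 was not resolved (two-sided exact permutation test, p = 0.3, adjusted over 3 ratios 0.45) and came from exposed pool 1, without which it was -0.015.

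The closest relative of *Stoml3*, *Stom*, which encodes stomatin, did change. *Stom* was at 13330, 15740 and 16317 TPM in control and at 21046 and 19591 TPM in exposed pools. Both exposed pools lay above all control pools, and in CPM the groups did not overlap for 39.9% of all tested genes. The change of *Stom* was as follows. It rose 1.51-fold (log2 fold change 0.60, SE 0.10, adjusted p = 0.0362, edgeR). The share of *Stoml3* in the summed TPM of the stomatin-domain genes was 65.9%, 64.8% and 61.4% in control and 55.9% and 55.7% in exposed pools, while that of *Stom* was 33.5%, 34.6% and 38.0% in control and 43.7% and 44.0% in exposed pools. Of the stomatin-domain genes other than *Stoml3*, 3 were tested (*Stom*, *Stoml1* and *Stoml2*), 1 was higher and none was lower. Over all genes tested, 3.42% were called higher and 1.85% lower. The median log2 fold change of the 3 was -0.33, with 2 estimates below 0. *Stom* was not called without control pool 2 (adjusted p = 0.119, edgeR), exposed pool 1 (0.302) or exposed pool 3 (0.116), with log2 fold changes of 0.49 to 0.67 over the libraries left out.

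Before the chloride step, the genes of the channel through which calcium enters were lower in exposed pools. Of 8 genes from the G protein to the cation channel, all were tested, 3 were lower and none was higher in exposed pools, with a median log2 fold change of -0.56. Over all genes tested, 1.85% were called lower and 3.42% higher, with a median of -0.03. The 3 were the subunits of the cyclic nucleotide-gated channel: *Cnga2* (1.78-fold lower, log2 fold change -0.83, SE 0.12, adjusted p = 0.0193), *Cnga4* (-0.53, SE 0.12, adjusted p = 0.0732) and *Cngb1* (-0.91, SE 0.17, adjusted p = 0.0484), all by edgeR. *Cnga2* was at 5668, 6938 and 5774 TPM in control and at 3188 and 2925 TPM in exposed pools. The groups did not overlap, as was the case in CPM for 39.9% of all tested genes. The log2 ratio of *Ano2* to *Cnga2* in TPM was -2.08, -1.98 and -2.04 in control and -1.26 and -1.15 in exposed pools, that is, *Ano2* was at 0.237-fold to 0.253-fold the level of *Cnga2* in control and at 0.417-fold and 0.450-fold in exposed pools. Both exposed pools exceeded all control pools, and the difference of 0.83 reached the smallest p that 3 pools against 2 allow (two-sided exact permutation test, p = 0.1, adjusted over 3 ratios 0.3).

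Of the 5 other genes before the channel, *Gnb1*, which encodes a G protein beta subunit, followed the split of *Slc12a2*. It was at 6325, 6628 and 1534 TPM in control and 916 and 883 TPM in exposed pools. The log2 fold change of *Gnb1* was -2.26 with all libraries (adjusted p = 0.135, edgeR) and -2.66 without control pool 3 (adjusted p = 0.00199), when it was called. *Gnb1* was low in the pool left out, so that call is not a test. The estimates for *Gnal*, *Gng13*, *Ric8b* and *Adcy3* lay between -0.59 and 0.37 and were not called. Without exposed pool 3 *Adcy3* was called lower (log2 fold change -1.57, adjusted p = 0.0714, edgeR). None of the 3 channel genes was called without exposed pool 1 or without exposed pool 3, with adjusted p of 0.109 and 0.128 for *Cnga2* by edgeR. Without control pool 2 only *Cnga2* was called, and *Cnga4* was not called without control pool 3 (adjusted p = 0.117).

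**Figure D5:**
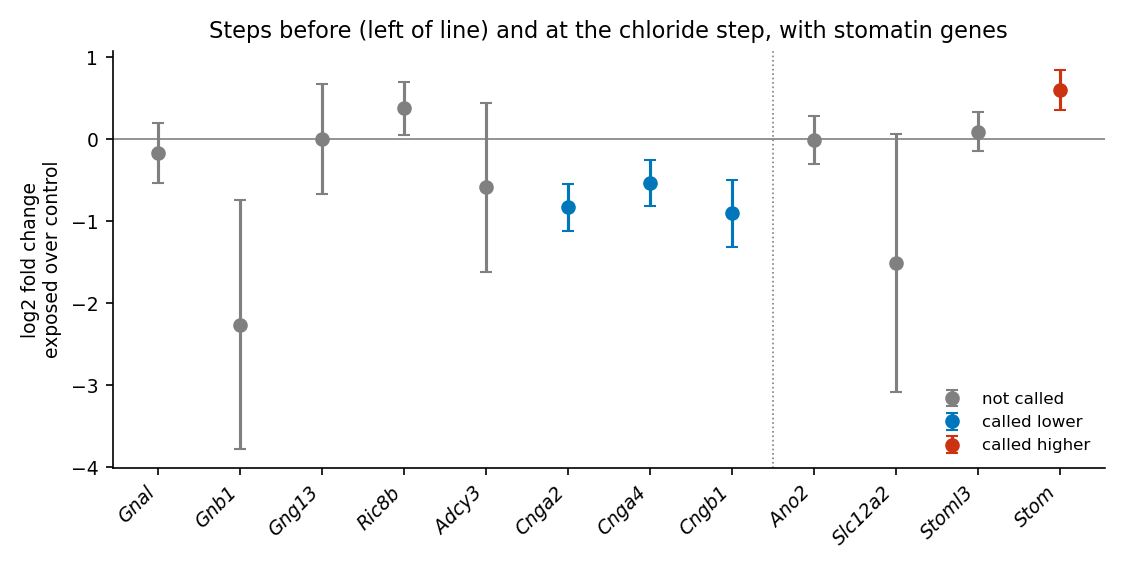
Log2 fold change, exposed over control, with 95% intervals from edgeR for genes before the chloride step (left of the dotted line) and for *Ano2*, *Slc12a2*, *Stoml3* and *Stom* (right), with called genes in colour. *Cnga2*, *Cnga4* and *Cngb1* lie below 0, *Stom* lies above 0, and *Ano2* (-0.01) and *Stoml3* (0.09) lie on the line.

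Other routes for anions ranged from undetected to levels like that of *Clcn3*, with mean levels of 37.5 TPM for *Lrrc8d* and 34.5 TPM for *Clcn3*. Of *Best1*, *Best2*, *Best3* and *Cftr*, which encode bestrophin channels and the cystic fibrosis channel, none was tested. *Best2* and *Best3* were at 0 in every library, *Best1*, the most abundant by mean, lay between 0 and 2.07 TPM, and *Cftr* was at 2.40 TPM in control pool 2 and at 0 in the other libraries. Of the 5 genes of the volume-regulated anion channel, 3 were tested and 1 was lower, where 1.85% of all tested genes were called lower. This was *Lrrc8d*, also the most abundant, at 46.8, 66.1 and 36.9 TPM in control and 17.8 and 20.1 TPM in exposed pools. It fell 2.34-fold (log2 fold change -1.23, SE 0.25, adjusted p = 0.0565, edgeR). The groups did not overlap, as was the case in CPM for 39.9% of all tested genes. *Lrrc8d* was called without control pool 3 but not without control pool 1 (adjusted p = 0.102, edgeR) or control pool 2 (0.140). It was also not called without exposed pool 1 (log2 fold change -1.20) or exposed pool 3 (-1.30), fits that leave 1 exposed pool. Its log2 fold changes were -1.38 to -1.02 over the libraries left out. Of the 5 anion exchanger genes 3 were tested and none was called, and the most abundant, *Slc4a2*, had a log2 fold change of -0.68 (SE 0.42, adjusted p = 0.429, edgeR).

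The genes whose pattern over the 5 libraries was most like that of a chloride gene were sought by the Euclidean distance between centred log2 CPM profiles, as a description without a test. For *Ano2* they were *Mfsd14a* (distance 0.08), *Ccz1* (0.09) and *Cntn4* (0.10), the last of which encodes a cell adhesion protein of axons. For *Stoml3* they were *Vps35* (0.03), a retromer subunit gene, *Psmd7* (0.06), a proteasome subunit gene, and *Zfp326* (0.07). The genes closest to *Slc12a2* lay farther away, with *Trim44* at 0.21, *Zfp930* at 0.29 and *Yaf2* at 0.36. *Trim44* had 5553, 4168 and 1142 counts in control and 1003 and 1088 counts in exposed pools, again low in control pool 3.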

How the data were processed

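RNA of FAC-sorted neurons had been amplified (SMARTer, Nextera XT) with spike-in RNAs added and sequenced in 50-base single reads. Mapping by the authors was to GRCm38 with STAR 2.7.0a and they made the deposited raw counts per gene with featureCounts 1.6.3, over exons, without strand and without multi-mapping reads. The submitters' notes also name DESeq2 1.30.1 in R 4.0.3. No filter or normalization is included in the values, and PCR copies cannot be told from independent molecules, so that detection limits cover counting error only. Pools of mice are the replicates, and groups were taken from the labels.

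Exposed and control pools were compared with edgeR 4.0.16 in R 4.3.3 (TMM, robust glmQLFit, glmQLFTest), with condition as the only factor. The 92 spike-in rows and the 267 genes without a symbol (0.00281% to 0.0038% of counts) were left out. A gene was tested if all libraries of either condition reached 140 counts, the local minimum in the density of counts on a log2 scale, which was chosen here. Adjusted p-values are Benjamini-Hochberg values over all genes tested. SE is the log2 fold change divided by the square root of F, and 95% intervals use edgeR's degrees of freedom. TPM was computed from the counts and exon lengths in the files, with Python 3.11.15, pandas 2.3.3 and numpy 2.4.6. Permutation tests were exact over libraries (scipy 1.17.1). The fit was tested on simulated data.

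All 8 genes are named. From lists of related genes, all called genes and the most abundant gene are named, and the 3 genes nearest in profile were taken for *Ano2*, *Slc12a2* and *Stoml3* among genes whose spread was not under 0.5 of that gene's. *Stk39*, *Cab39*, *Wnk1*, *Wnk2*, *Wnk4*, *Gnb1* and single cell type markers are also named because of their values. The genes and lists were chosen with earlier results of these data known. The labels give 3 consecutive days of exposure but do not tie a pool to a day. Some genes of the lists are not reported here. Alternatives were DESeq2 1.42.0, its size factors or the spike-in counts for scaling, other count filters, an adjusted p under 0.05, a pool-number block and the omission of each library in turn.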

Additional observations from a re-analysis of the deposited data

How the results depend on the processing

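The number of chloride genes called was 0 under every alternative except without control pool 3, where it was 1, so that leaving out 1 library gave 0 to 1. *Slc12a2* stayed below 0 in all 12 alternatives (log2 fold change -1.92 to -0.92 when 1 library was left out) and *Ano6* above 0 in all 12 (0.62 to 1.64). Estimates near 0 changed sign: *Ano2* was 0.00495 with DESeq2, 0.00495 with its size factors, 0.00986 without a count filter, 0.00368 with filterByExpr, 0.071 with the replicate block and -0.074 to 0.080 with 1 library left out. With spike-in scaling, which moved the median of all genes from -0.03 to -0.23, *Ano10* was -0.024, *Clcn3* -0.21 and *Stoml3* -0.15, close to that shift or above it. With 1 library left out, *Clcn3* lay between -0.14 and 0.11 and *Stoml3* between -0.030 and 0.16. Testing without a filter moved the median of all genes to -0.15.

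The numbers of genes called higher and lower were 725 and 769 with DESeq2, 94 and 49 with spike-in scaling, 163 and 77 with filterByExpr, and 190 and 90 at an adjusted p under 0.05. With 1 library left out they were 93 to 349 higher and 19 to 431 lower, the fewest without exposed pool 1 (93 and 19). Without control pool 2 they were 160 and 64, without exposed pool 3 112 and 80, and without control pool 3 349 and 431. The causes were not tested. With a replicate block for the pool number, 11 genes were higher, 0 lower and no chloride gene was called. The block leaves pool 2 without a partner. Deviations from the group means correlated across genes at 0.02 for pools numbered 1 and at -0.07 for those numbered 3. With 2 exposed pools, their deviations mirror each other, so these correlations cannot decide whether equal numbers pair the pools.

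The log2 ratio of *Slc12a2* to *Slc12a5* differed by -2.36 to 0.52 between conditions with 1 library left out, and was reversed, at 0.52, without control pool 1. That of *Stoml3* to *Adcy3* differed by -0.015 to 1.72, and that of *Ano2* to *Cnga2* by 0.77 to 0.88. In the pairing by pool number these 3 differences were -0.86, 0.74 and 0.85.

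Among the lists of related genes, spike-in scaling and the replicate block left no call. With filterByExpr only *Cnga2* and *Stom* were called, and *Cngb1* (adjusted p = 0.139, edgeR), *Cnga4* (0.160) and *Lrrc8d* (0.146) were not. Without a count filter *Cnga4* was not called (adjusted p = 0.134, edgeR). DESeq2 called *Gnb1*, *Stk39* and *Cab39l* lower in addition. With 2 exposed pools, the spread within that condition rests on 1 difference per gene.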
